A study of Mus musculus with 6 samples.

Results

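Class I antigen presentation was described here through 9 genes, chosen by name: the heavy chain genes H2-K1 and H2-D1, the light chain gene B2m, the peptide loading genes Tap1, Tap2 and Tapbp, the immunoproteasome genes Psmb8 and Psmb9, and the transactivator gene Nlrc5. All 9 were present among the 18478 genes of the count table, and all 9 passed the filter on low counts that left 14084 genes. They were measured in group 2 innate lymphoid cells (ILC2s), lymphocytes that live in tissues, carry no antigen receptor and secrete type 2 cytokines, sorted from the lungs of BALB/c mice aged 6 weeks. The libraries were 3 from CB2 KO mice, which lack cannabinoid receptor 2 (gene Cnr2), and 3 from WT mice. In both groups the mice had been given 1 µg recombinant IL-33 into the nose 3 times, and the sorted cells were cultured for 24 h in 10 ng/mL each of IL-7 and IL-2, so no untreated cells enter the comparison. The labels state neither which part of Cnr2 was deleted nor whether the replicates came from separate mice or pools, so the p-values speak to the spread among these 6 libraries alone, which may be technical.

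Class I molecules show peptides from inside the cell to CD8 T cells and inhibit or engage natural killer cells. The proteasome cuts cytosolic proteins, and in immune cells the inducible subunits encoded by Psmb8, Psmb9 and Psmb10 take the places of Psmb5, Psmb6 and Psmb7. The TAP1 and TAP2 transporter carries the peptides into the endoplasmic reticulum, where tapasin (Tapbp) bridges it to the heavy chain paired with β2-microglobulin (B2m). NLRC5 drives transcription of class I genes by joining factors bound to the S, X and Y boxes of their promoters. Interferons raise many of the genes named here, the inducible subunits among them.

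Letters that match the cores of these boxes were searched for in the promoters. RefSeq gave a window (GRCm38.p6, from C57BL/6J mice) for 7 of the 9 genes, and Tap2 and Nlrc5 had no entry. In the 250 bases before each start site, 5 motifs were searched on both strands: TGACG (core of the X2 box), CCAAT (core of the Y box), GAAANNGAA and GAANNGAAA (the GAA repeats of interferon response elements at different spacings) and GGGATTCCC (an NF-kappaB site). The GAA motifs can overlap each other. The windows below belong to both heavy chains, the light chain and Tap1, and are shown so that their layouts can be compared by eye. In the H2-K1, H2-D1 and B2m windows the X2 box core came before the Y box core. In the Tap1 window the order was the reverse, so this layout was not shared by Tap1. Capitals mark every motif match in all windows shown. They lie at chr17:34000348-34000597 (minus strand, H2-K1), chr17:35262844-35263093 (plus strand, H2-D1), chr2:122147437-122147686 (plus strand, B2m) and chr17:34187306-34187555 (plus strand, Tap1).
H2-K1: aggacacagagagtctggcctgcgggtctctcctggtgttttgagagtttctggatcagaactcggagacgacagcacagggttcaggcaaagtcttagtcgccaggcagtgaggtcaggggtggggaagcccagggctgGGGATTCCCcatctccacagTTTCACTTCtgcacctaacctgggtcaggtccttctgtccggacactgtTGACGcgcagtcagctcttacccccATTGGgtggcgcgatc
H2-D1: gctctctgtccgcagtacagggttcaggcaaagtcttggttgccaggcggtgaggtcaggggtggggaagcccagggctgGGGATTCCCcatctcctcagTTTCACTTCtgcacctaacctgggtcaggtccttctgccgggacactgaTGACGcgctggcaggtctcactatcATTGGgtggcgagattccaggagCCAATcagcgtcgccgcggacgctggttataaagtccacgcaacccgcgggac
B2m: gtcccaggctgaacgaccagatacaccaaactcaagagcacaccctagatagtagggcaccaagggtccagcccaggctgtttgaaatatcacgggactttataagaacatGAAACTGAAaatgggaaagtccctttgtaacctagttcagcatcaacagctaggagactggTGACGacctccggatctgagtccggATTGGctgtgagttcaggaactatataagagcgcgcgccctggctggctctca
Tap1: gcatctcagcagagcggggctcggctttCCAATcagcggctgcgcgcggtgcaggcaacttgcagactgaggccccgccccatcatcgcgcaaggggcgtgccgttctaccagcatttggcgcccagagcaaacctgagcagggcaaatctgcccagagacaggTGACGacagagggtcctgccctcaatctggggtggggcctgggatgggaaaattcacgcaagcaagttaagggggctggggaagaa

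TGACG and CCAAT occurred together in 5 of the 7 windows, against 6.12% of all 32851 RefSeq windows of the same length. These 5 were the windows of H2-K1, H2-D1, B2m, Tap1 and Psmb9, and those of Tap1 and Psmb9 are largely the same DNA read from opposite strands. The Tapbp window held CCAAT without TGACG and the Psmb8 window neither. The start sites used lay 3579 bases from the annotated gene start for Tapbp, 474 for Psmb8, 434 for Psmb9 and 364 for H2-D1, and at most 3 bases from it for H2-K1, B2m and Tap1. GGGATTCCC was in the H2-K1 and H2-D1 windows and in 0.301% of all windows, and GAANNGAAA was in the same 2 windows and in 6.31% of all. GAAANNGAA was in the B2m window alone among the 7 and in 7.13% of all windows. The H2-K1 and H2-D1 windows were identical at 161 of the 177 columns of their best local alignment. A match describes letters of the reference, not binding of a factor in these cells.

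The 9 genes fall in 3 places of the genome (mm10). Of them 7 lie in the major histocompatibility complex on chromosome 17: Tapbp (33915899 to 33929292), H2-K1 (33996017 to 34000347), the neighbours Psmb9 (34181987 to 34187764), Tap1 (34187553 to 34197225), Psmb8 (34197721 to 34201454) and Tap2 (34203527 to 34216321), and H2-D1 (35262730 to 35267499). B2m lies on chromosome 2 (122147686 to 122153083) and Nlrc5 on chromosome 8 (94434356 to 94527272). Psmb9 and Tap1 run in opposite directions and their annotated exons share 212 bases, and no source used here gives the strand setting of the counting, so reads there cannot be assigned to one gene. Other genes that share exon bases with the 9 had mean counts of 22.6 to 146 per library, apart from Zbtb22, which shares 149 exon bases with Tapbp and had a mean count of 476.5.

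Counts of the 2 heavy chains carry a further uncertainty. Their longest principal transcripts were 88.2% identical over 1513 bases, and H2-K1 shared 91.4% of 945 bases with H2-Q4, so reads that fit several genes have to be divided by estimation. The estimated count of B2m was whole (within 0.01) in 6 of 6 libraries, that of H2-K1 in 2 and that of H2-D1 in 1. BALB/c mice also carry another haplotype of this complex than the C57BL/6 reference, which can affect how reads of polymorphic class I chains align. The same holds for CB2 KO and WT as far as the labels go, since both are labelled BALB/c.

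The libraries held 17141698 to 21621008 estimated counts, and each of the 9 genes had at least 1397 and at most 101750 of them in any library. Values in CPM are counts scaled to library size with TMM factors. Cnr2, the targeted gene, was at 9.24, 1.60 and 3.84 CPM in the libraries labelled CB2 KO replicates 1 to 3, against 9.32, 17.4 and 15.8 CPM in WT. The library labelled CB2 KO replicate 1 was thus level with the lowest WT library, and the log2 fold changes of Nlrc5 and H2-K1 are also given without it. All 15 ILC2 markers listed passed the filter, and 0 passed an edgeR adjusted p of 0.05 (5 at an unadjusted p under 0.05, as for 8.6% of all tested genes in either direction; DESeq2 called Il5 higher and Icos lower), with 6 positive and 9 negative log2 fold changes. In 1 of them, Il5, every CB2 KO value exceeded every WT value, as for 6.91% of all tested genes. In 6 every one was below, as for 7.2% of all tested genes. Il5, the type 2 cytokine gene, was at 7888 to 10015 CPM in CB2 KO and 6972 to 7871 CPM in WT, Il2ra at 1811 to 1978 CPM in CB2 KO and 2056 to 2416 CPM in WT, and Gata3 at 932 to 987 CPM in CB2 KO and 994 to 1095 CPM in WT. Markers of macrophages and dendritic cells summed to 189 to 213 CPM in CB2 KO and 60.5 to 112 CPM in WT, with 5 of 6 tested markers positive. Of these, Lyz2 averaged 17.3 ± 5.98 CPM in CB2 KO and 1.64 ± 0.79 CPM in WT and was the 1 that DESeq2 called. Chil3 averaged 128 ± 18.4 CPM in CB2 KO and 18.9 ± 25.1 CPM in WT, and Xcr1 went the other way, at 31.0 ± 9.48 CPM in CB2 KO and 57.6 ± 20.2 CPM in WT. Those of mast cells and basophils summed to 41.4 to 86.9 CPM in CB2 KO and 17.5 to 28.3 CPM in WT, with 5 of 5 positive. Among them DESeq2 called 1, Tpsb2, at 23.3 ± 8.41 CPM in CB2 KO and 2.29 ± 0.94 CPM in WT. In either list edgeR called 0. At an unadjusted edgeR p under 0.05 were 4 of the 6 tested macrophage and dendritic cell markers, Xcr1 among them. So were 3 of the 5 of mast cells and basophils, against 8.6% of all tested genes. Every CB2 KO value exceeded every WT value for 3 markers of each list, as for 6.91% of all tested genes. For Xcr1 every CB2 KO value was below. Mrc1, Flt3 and Ms4a2 were at 0 in 5 of the 6 libraries and Csf1r in 3. T cell markers summed to 147 to 158 CPM in CB2 KO and 146 to 158 CPM in WT. Most of this was Trbc2, at 113 to 130 CPM in CB2 KO and 128 to 138 CPM in WT. At an unadjusted edgeR p under 0.05 was 1 of 5 tested, Cd3g, against 8.6% of all tested genes. Cd3g was at 25.6, 28.9 and 23.9 CPM in CB2 KO and 9.60, 17.2 and 15.1 CPM in WT. Log2 fold changes were positive for 3 and negative for 2 of the 5, with Trbc2 negative. Sums were 25.4 to 33.6 CPM in CB2 KO and 20.5 to 54.5 CPM in WT for B cells. For epithelium they were 25.8 to 49.0 CPM in CB2 KO and 31.0 to 145 CPM in WT. In these further lists edgeR and DESeq2 called 0. The part of any of these cells in the class I differences was not tested.

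Class I heavy and light chains were among the most abundant transcripts of these ILC2s. Scaled by the length of the longest principal transcript (TPM), B2m averaged 5201 ± 55.8 TPM in CB2 KO and 5247 ± 175 TPM in WT. H2-D1 averaged 4199 ± 208 TPM in CB2 KO and 3947 ± 162 TPM in WT, and H2-K1 2241 ± 54.5 TPM in CB2 KO and 1920 ± 169 TPM in WT (SD, n = 3 each). By mean TPM over the 6 libraries these 3 genes ranked 8, 10 and 29 of 13734 tested genes with a length. Psmb8 followed at 609.8 ± 21.8 TPM in CB2 KO and 596 ± 27.4 TPM in WT, and Tapbp at 253 ± 9.63 TPM in CB2 KO and 263 ± 9.10 TPM in WT. Tap2, Tap1 and Psmb9 lay close together, with libraries between 112 and 161, 103 and 157, and 113 and 134 TPM, so their order is not resolved. Nlrc5 was the lowest, at 38.2 ± 4.36 TPM in CB2 KO and 28.4 ± 1.39 TPM in WT, rank 4854. Apart from Tap2, Tap1 and Psmb9, no 2 neighbours in this order overlapped in any library. The order of the means was the same with the union of all annotated exons as length, although the values moved, B2m to 7242 and Psmb9 to 63.2 TPM.

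**Figure D1:**
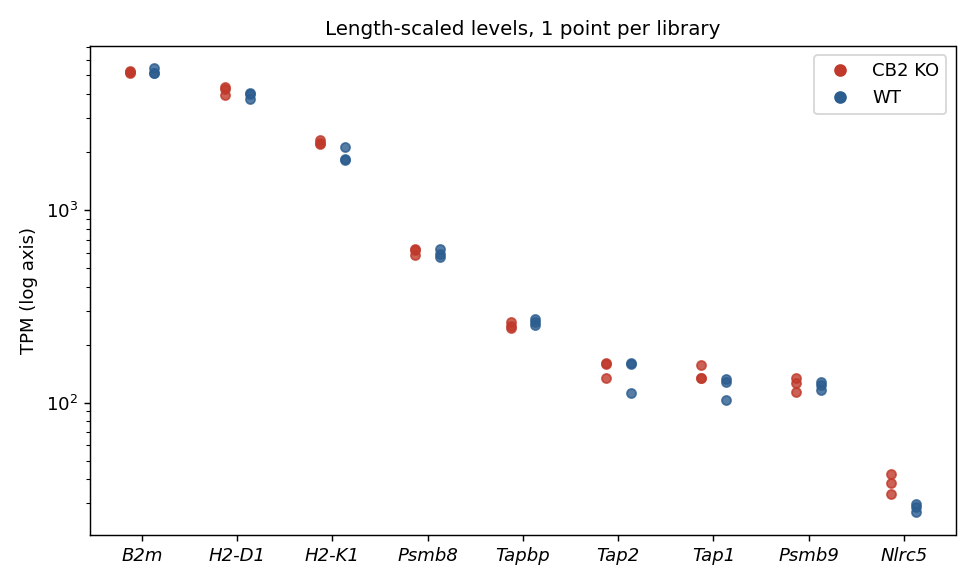
Length-scaled level (TPM, log axis) of the 9 class I genes, with 1 point per library, CB2 KO left of WT, ordered by the mean of all 6 libraries. B2m, H2-D1 and H2-K1 lie at 1808 TPM or more in every library, and Nlrc5 at 42.4 TPM or less.

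The only comparison of the series, CB2 KO against WT, asks how loss of CB2 affects the ILC2 transcriptome. Of the 9 genes, 0 passed the threshold (quasi-likelihood test of edgeR, p adjusted by Benjamini-Hochberg over 14084 genes, under 0.05), where 0.107% of all tested genes did (0.0426% higher in CB2 KO). Log2 fold changes were positive for 7 and negative for 2 of the 9, with a median of 0.046, against a median of -0.0003 over all tested genes. At an unadjusted p under 0.05, 2 of the 9 were higher in CB2 KO, H2-K1 and Nlrc5, and 4.33% of all tested genes were higher at that level. DESeq2 on the same counts called these same 2 genes higher, where it called 1.19% of 14046 genes higher and 2.58% in either direction, with Benjamini-Hochberg adjusted p of 0.018 for H2-K1 and 0.0238 for Nlrc5. Over all 15 alternatives the adjusted p ran from 0.018 to 0.702 for H2-K1 and from 0.0238 to 0.678 for Nlrc5, and DESeq2 was the only 1 of the 15 to call either.

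Nlrc5, the transactivator, had the widest difference of the 9. It was at 155, 168 and 136 CPM in CB2 KO and at 122, 116 and 109 CPM in WT. All CB2 KO values exceeded all WT values, as for 6.91% of all tested genes. The mean was 153 ± 16.5 CPM in CB2 KO and 116 ± 6.34 CPM in WT (SD, n = 3 each), 32.2% higher. The log2 fold change was 0.41 (SE 0.12, 95% interval 0.13 to 0.68), with an edgeR adjusted p of 0.444. The log2 fold change was 0.40 when CB2 KO replicate 1, the library level with WT in Cnr2, was left out. Because RNA came from bulk sorted cells, more cells carrying a transcript and more transcript per cell cannot be told apart.

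H2-K1, a classical heavy chain gene, was at 1904, 1951 and 1906 CPM in CB2 KO and at 1592, 1817 and 1597 CPM in WT. The CB2 KO libraries lay close together and all above WT, as for 6.91% of all tested genes. WT replicate 2 came nearest to them. Means were 1920 ± 27.0 CPM in CB2 KO and 1669 ± 129 CPM in WT, 15.1% higher, with a log2 fold change of 0.20 (SE 0.06, 95% interval 0.06 to 0.34; adjusted p = 0.446 in edgeR). Leaving out the same CB2 KO library gave 0.21. H2-D1, the other heavy chain gene described here, was at 4453, 4801 and 4758 CPM in CB2 KO and at 4654, 4473 and 4242 CPM in WT. These groups overlapped, with a log2 fold change of 0.07 (SE 0.05, 95% interval -0.04 to 0.18; adjusted p = 0.751 by the same edgeR test). H2-K1 and H2-D1 were also summed, which does not depend on how reads were split between the pair. The sum was 6356, 6752 and 6664 CPM in CB2 KO and 6246, 6290 and 5839 CPM in WT. Every CB2 KO sum was above every WT sum, the nearest being 6356 against 6290 CPM. The sum contains H2-K1, so its separation is not independent of that of H2-K1 alone. H2-K1 made up 29.9, 28.9 and 28.6% of that sum in CB2 KO and 25.5, 28.9 and 27.3% in WT. These shares overlapped between groups, with CB2 KO replicate 3 below WT replicate 2. With the similar genes H2-Q4, H2-Q6, H2-Q7 and H2-Q10 added, sums were 6908, 7390 and 7269 CPM in CB2 KO and 6732, 6846 and 6372 CPM in WT.

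B2m, the light chain shared by all class I molecules, was at 2370, 2369 and 2364 CPM in CB2 KO and at 2548, 2357 and 2367 CPM in WT. The CB2 KO values lay close together, and WT replicate 1 alone stood above the other 5. The log2 fold change was -0.03 (SE 0.04), and its 95% interval, -0.13 to 0.07, is the narrowest of the 9. As a fold change of CB2 KO over WT the interval runs from 0.912 to 1.05.

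**Figure D2:**
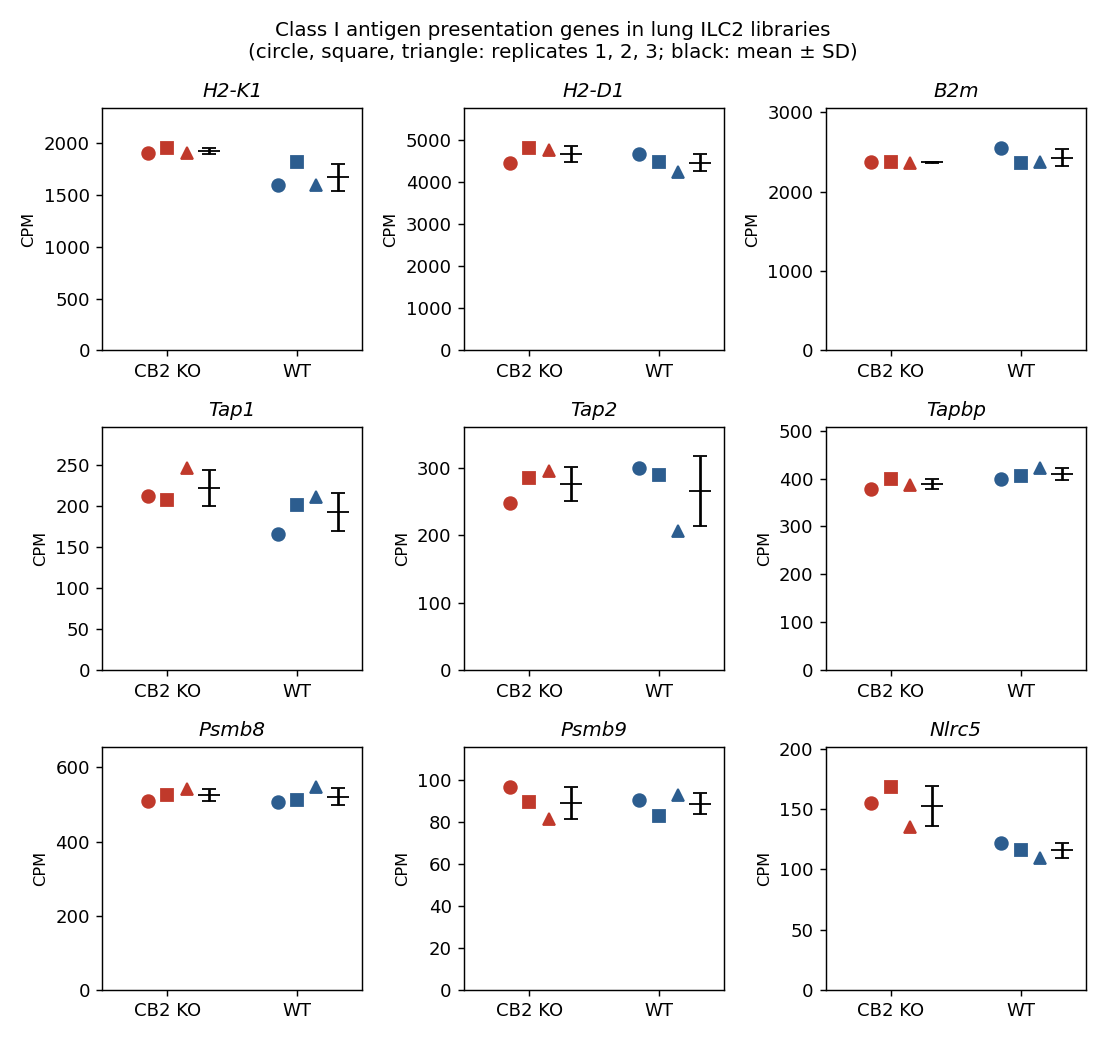
CPM of each class I gene in each library (CB2 KO left, WT right; circle, square and triangle are replicates 1, 2 and 3; black marks are the mean ± SD, n = 3). The groups are separate for Nlrc5 and H2-K1, where CB2 KO is higher, and by less than 1 CPM for Tapbp, where CB2 KO is lower; the other 6 genes overlap.

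Of the peptide loading genes, Tap1 and Tap2 encode the transporter. Tap1 was at 212, 207 and 246 CPM in CB2 KO and at 166, 201 and 210 CPM in WT. Only CB2 KO replicate 2 lay below the highest WT library. The log2 fold change of Tap1 was 0.20 (SE 0.12, 95% interval -0.08 to 0.49; adjusted p = 0.692 in edgeR), and it was 0.10 without WT replicate 1. Tap2 was at 247, 285 and 295 CPM in CB2 KO and at 300.3, 289.7 and 206 CPM in WT, where WT replicate 3 stood below the other 5 libraries. Its log2 fold change of 0.05 (SE 0.15, 95% interval -0.31 to 0.40) turned to -0.10 without WT replicate 3 and to -0.0018 without CB2 KO replicate 3. Tapbp, the tapasin gene, was at 379, 399.7 and 386 CPM in CB2 KO and at 399.9, 404 and 423 CPM in WT. Every CB2 KO library was below every WT library, as for 7.2% of all tested genes, but the nearest pair was 399.7 against 399.9 CPM. The log2 fold change of Tapbp was -0.07 (SE 0.06, 95% interval -0.22 to 0.07; adjusted p = 0.802 by the same edgeR test).

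The immunoproteasome genes showed the smallest differences. Psmb8 was at 509, 526 and 541 CPM in CB2 KO and at 506, 512 and 546 CPM in WT. The groups overlapped over nearly their whole range, with a log2 fold change of 0.01 (SE 0.06, 95% interval -0.13 to 0.15). Psmb9 was at 96.6, 89.4 and 81.2 CPM in CB2 KO and at 90.6, 83.1 and 92.7 CPM in WT, with a log2 fold change of 0.01 (SE 0.13, 95% interval -0.29 to 0.31). Adjusted p was 0.973 for Psmb8 and 0.988 for Psmb9 in edgeR. As fold changes, the interval of Psmb8 runs from 0.914 to 1.11 and that of Psmb9, the wider one, from 0.818 to 1.24.

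Each inducible subunit was also set against the constitutive subunit whose place it takes, as a ratio per transcript length. Psmb8 to Psmb5 was 1.55 ± 0.10 in CB2 KO and 1.45 ± 0.25 in WT. Psmb9 to Psmb6 was 0.210 ± 0.021 in CB2 KO and 0.229 ± 0.0061 in WT, and Psmb10 to Psmb7 was 0.340 ± 0.026 in CB2 KO and 0.350 ± 0.073 in WT (SD, n = 3 each). The exact two-sided permutation p of the log2 ratios was 0.8, 0.2 and 0.9 for the 3 pairs (0.9, 0.6 and 0.9 with Benjamini-Hochberg adjustment over them), where 3 against 3 cannot go below 0.1. Per length of all exons the ratios of Psmb8 to Psmb5 were 0.747 in CB2 KO and 0.701 in WT. Those of Psmb9 to Psmb6 were 0.182 in CB2 KO and 0.198 in WT, and those of Psmb10 to Psmb7 0.771 in CB2 KO and 0.793 in WT. The level of each ratio, and whether Psmb8 to Psmb5 lies above 1, thus depends on the length used, while the comparison between groups does not.

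**Figure D3:**
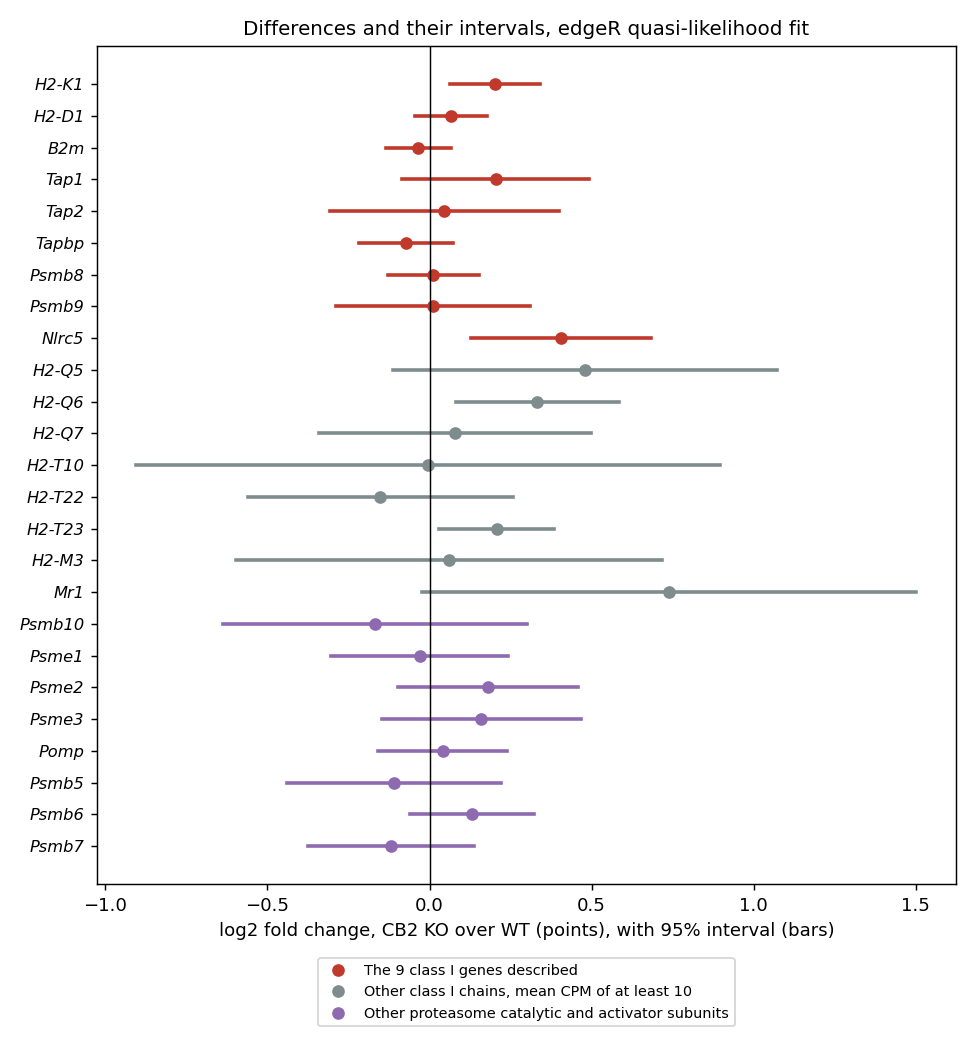
Log2 fold change of CB2 KO over WT (points) with its 95% interval (bars) in the edgeR fit, for the 9 class I genes, the other class I chains with a mean of at least 10 CPM, and other proteasome subunits. Nlrc5, H2-K1, H2-Q6 and H2-T23 have unadjusted intervals above 0; none of the genes shown passed the adjusted threshold.

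The rest of the pathway was described by lists of named genes. Of 13 tested nonclassical and related class I chain genes, 0 passed the edgeR threshold (2 at an unadjusted p under 0.05, against 8.6% of all tested genes, and 0 with DESeq2), 10 had a positive and 3 a negative log2 fold change, and the median was 0.11. H2-T23, which encodes the Qa-1 molecule recognised by natural killer receptors, was at 361, 393 and 365 CPM in CB2 KO and 309, 316 and 347 CPM in WT (log2 fold change 0.21, SE 0.08; adjusted p = 0.514 in edgeR). H2-Q6 was at 277, 244 and 232 CPM in CB2 KO and 217, 182 and 199 CPM in WT (log2 fold change 0.33, SE 0.11; adjusted p = 0.454 by the same edgeR test). In 3 of the 13, H2-T23, H2-Q6 and Mr1, every CB2 KO library lay above every WT library, where 6.91% of all tested genes did so. H2-Q7 averaged 333 ± 66.3 CPM in CB2 KO and 315 ± 52.9 CPM in WT, and its counts, like those of H2-Q6, are uncertain because these chains resemble each other.

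Of 20 tested genes of the loading complex, quality control, peptide trimming and the translocon, 0 passed in edgeR. At an unadjusted edgeR p under 0.05 were 2, against 8.6% of all tested genes. DESeq2 called 1, Ide, where it called 2.58% of all its genes in either direction. Log2 fold changes were positive for 10 and negative for 10, with a median of 0.0043. Hspa5, the chaperone BiP, averaged 1958 ± 40.2 CPM in CB2 KO and 2012 ± 113 CPM in WT. Pdia3, which encodes the thiol oxidoreductase of the loading complex, averaged 1744 ± 21.1 CPM in CB2 KO and 1863 ± 66.1 CPM in WT (log2 fold change -0.09, SE 0.04), and Canx, the calnexin gene, 927 ± 8.61 CPM in CB2 KO and 913 ± 42.2 CPM in WT. The lowest adjusted p in this list was 0.0856, for Ide, a cytosolic protease gene, at 237, 239 and 202 CPM in CB2 KO and 342, 354 and 333 CPM in WT, a log2 fold change of -0.60 (edgeR); Ide was named after its values were seen.

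Among the other proteasome genes edgeR called 0, DESeq2 called 0 and 0 had an unadjusted p under 0.05: 0 of 5 in the list of Psmb10, the activator subunits and the assembly factor (3 positive, median 0.04), 0 of 3 constitutive catalytic subunits (1 positive, median -0.11) and 0 of 11 further core subunits (7 positive, median 0.09). Psme3 averaged 314 ± 54.0 CPM in CB2 KO and 282 ± 18.1 CPM in WT. Pomp, which encodes a proteasome assembly factor, averaged 271 ± 21.2 CPM in CB2 KO and 263 ± 7.48 CPM in WT. Psma2, a subunit of the outer ring, averaged 412 ± 4.49 CPM in CB2 KO and 374 ± 31.3 CPM in WT. Of 15 regulators of class I genes other than Nlrc5, 0 passed in edgeR. At an unadjusted edgeR p under 0.05 was 1, against 8.6% of all tested genes. DESeq2 called 1, Suz12, which was lower in CB2 KO, where it called 2.58% of all its genes. Log2 fold changes were positive for 6 and negative for 9, with a median of -0.05. Nfyb, a subunit of the factor that binds CCAAT, averaged 103 ± 14.8 CPM in CB2 KO and 122 ± 20.0 CPM in WT.

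Genes of the interferon response, many of which are induced together with class I genes, showed no edgeR call either: 0 of 32 tested passed. At an unadjusted edgeR p under 0.05 were 2, against 8.6% of all tested genes. DESeq2 called 1, Ifih1, lower in CB2 KO, where it called 2.58% of all its genes. Log2 fold changes were positive for 11 and negative for 21, with a median of -0.21. Part of this list had few counts. Isg15, Ifit2, Oas1a, Oas3, Usp18 and Gbp2 were at 0 CPM in CB2 KO replicate 1, Gbp3 in WT replicate 1, and Rsad2 in libraries of both groups. Among the abundant genes, Socs1 averaged 588 ± 13.3 CPM in CB2 KO and 596 ± 14.8 CPM in WT. The guanylate-binding protein gene Gbp4 averaged 321 ± 64.1 CPM in CB2 KO and 277 ± 32.7 CPM in WT. A list of class II genes, the class II invariant chain gene Cd74 (chromosome 18) and other genes of the complex on chromosome 17 gave 0 of 23 passing in edgeR. At an unadjusted edgeR p under 0.05 were 4, against 8.6% of all tested genes. DESeq2 called Cd74 and Lta, both higher, where it called 1.19% of all its genes higher. The list had 13 positive and 10 negative log2 fold changes and a median of 0.0087. Within that list the CB2 KO values of H2-Ab1, Cd74, H2-DMb1, Tnf and Lta, 5 of the 23, all exceeded those of WT, where 6.91% of all tested genes did so. Lta, the lymphotoxin alpha gene, averaged 431 ± 57.1 CPM in CB2 KO and 332 ± 26.5 CPM in WT (log2 fold change 0.38, SE 0.11; adjusted p = 0.446 in edgeR). Cd74 was at 71.9, 79.4 and 87.4 CPM in CB2 KO and 39.1, 33.8 and 51.0 CPM in WT, with an adjusted p of 0.234 in edgeR. The sum of the macrophage and dendritic cell markers was higher in the CB2 KO libraries, as given above. Most of that sum was Chil3, at 108 to 143 CPM in CB2 KO, while Xcr1 was lower in CB2 KO. The part of these cells in the class II values was not tested.

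Across the 6 libraries the 9 genes varied little, the highest library being between 1.08 times (Psmb8 and B2m) and 1.54 times (Nlrc5) the lowest. The mean standardized log2 CPM of the 9 was -0.05, 0.44 and 0.25 in CB2 KO replicates 1 to 3 and -0.09, -0.28 and -0.27 in WT replicates 1 to 3, with the lowest CB2 KO value in the library labelled CB2 KO replicate 1. Among 9232 other genes with a mean of at least 10 CPM, the 5 whose log2 CPM followed this profile most closely were Npm1, Usp24, Fbxo6, Lta and Espn, with Pearson r between 0.967 and 0.995. Over 6 libraries from 2 groups, such values also carry any difference between the groups and describe these libraries only.

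**Figure D4:**
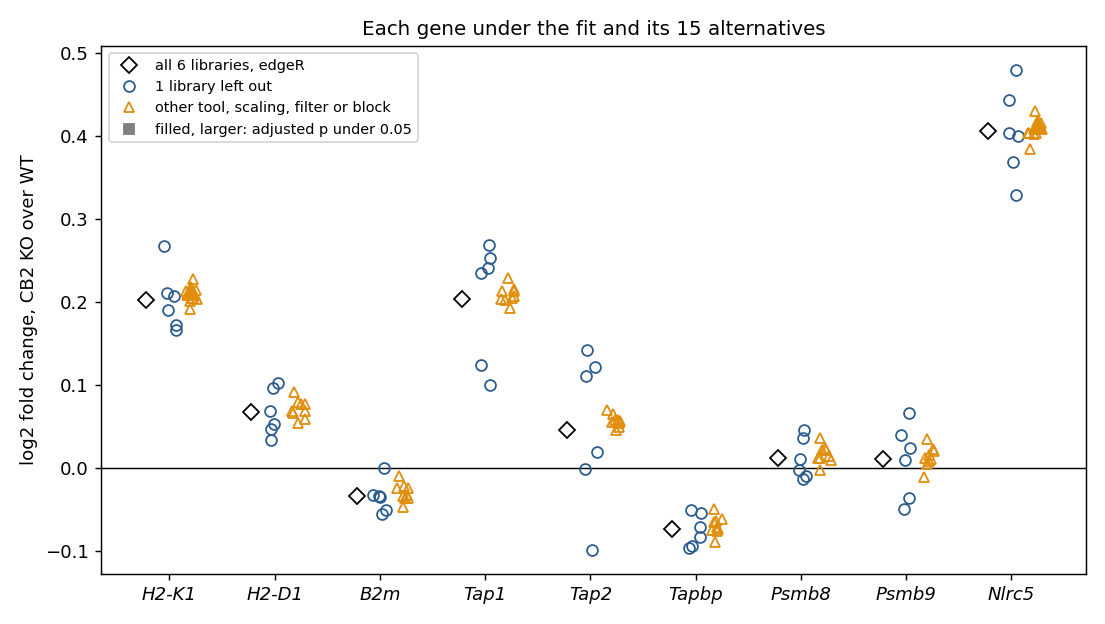
Log2 fold change of CB2 KO over WT for each class I gene (y axis) in the edgeR fit on all 6 libraries (diamond), with 1 library left out (circles) and under other tools, scalings, filters or the replicate block (triangles). Filled triangles, present for H2-K1 and Nlrc5 with DESeq2, passed an adjusted p of 0.05; H2-K1, Nlrc5, H2-D1 and Tap1 stay above 0 and B2m and Tapbp below 0 under all 15 alternatives.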

How the data were processed

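Members and gene lists were chosen with earlier results of these data known. RNA of sorted lung ILC2s was sequenced from 3 CB2 KO and 3 WT libraries, grouped and numbered by sample title. The authors deposited estimated counts per gene (Partek E/M, per the name of the deposited table) and a normalized signal for the same genes, obtained from them, as the values show, by adding 1 and dividing each library by its own factor. CASAVA 1.8.2, STAR (with version 3.5.3), Partek and mm10 are named per the submitters' processing notes. Libraries started from 10 ng RNA, per the labels' protocols.

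Estimated counts were rounded and tested over all genes with edgeR 4.0.16 (R 4.3.3): TMM, filterByExpr, glmQLFit (robust, not legacy), glmQLFTest, Benjamini-Hochberg, threshold 0.05. Standard errors are the log2 fold change over the root of F, and 95% intervals use the fit's total degrees of freedom; they are not adjusted for multiple tests. Positive values mean higher in CB2 KO. Alternatives used DESeq2 1.42.0, limma 3.58.1, other scalings, no filter, legacy=TRUE, the deposited signal, a replicate block, and leaving out each library. The workflow was tested on simulated data. Transcript lengths and overlaps came from GENCODE M21 and transcript identity from blastn. Gene starts of all 9 members equal GENCODE's. Genes named from the other lists are up to the 3 most abundant. Ide, Suz12, Ifih1, Mr1, H2-Ab1, H2-DMb1, Tnf, Cd74, Icos and the marker and interferon response genes at 0 were named after their values were seen.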

Additional observations from a re-analysis of the deposited data

How the results depend on the processing

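Members called: 0 of 9 under 14 of the 15 alternatives and 2 with DESeq2. Genes called over the whole table: 15 in the fit given, 363 with DESeq2, 3 with the replicate block, and 3 to 8 with 1 library left out (8, 5 and 3 without CB2 KO replicates 1 to 3, and 4, 3 and 4 without WT replicates 1 to 3). The values do not settle whether the replicate numbers pair the libraries. Deviations from the group means correlated at 0.074, 0.031 and 0.02 between libraries of the same number. Between libraries of different number the correlations ran from -0.056 to 0.032, and not every library correlated best with its own number. With the replicate block 0 members were called, and log2 fold changes were 0.20 for H2-K1 and 0.40 for Nlrc5. Of 135 values (9 genes under 15 alternatives), 124 kept direction and call, 2 gained a call (DESeq2, H2-K1 0.21 and Nlrc5 0.41) and 9 changed sign, all of Tap2, Psmb8 or Psmb9. With the authors' normalized signal Psmb8 became -0.0024 and Psmb9 -0.012. Leaving out 1 library gave -0.099 to 0.14 for Tap2, -0.013 to 0.046 for Psmb8 and -0.050 to 0.066 for Psmb9. For the subunit ratios the log2 difference ranged from -0.046 to 0.19 (Psmb8 to Psmb5), -0.18 to -0.043 (Psmb9 to Psmb6) and -0.13 to 0.14 (Psmb10 to Psmb7). The cause of these changes was not tested. The use of all exons as length was chosen after seeing the data. Each gene had at least 1397 counts in every library, and each group had 3 libraries.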
